A study of Mustela putorius furo and Mus musculus with 4 samples.

Results

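Late *Eomes*+ cells were cells of the mouse embryonic cortex that still held messenger RNA of *Eomes* (TBR2), the T-box factor that marks intermediate progenitor cells, but none of 5 genes of the preceding step. Members had at least 2 unique molecular identifiers (UMIs, each standing for 1 captured molecule) of *Eomes* and 0 UMI of *Neurog1*, *Neurog2*, *Neurod4*, *Btbd17* and *Gadd45g*, and fewer than 3 of the 7 division genes *Mki67*, *Top2a*, *Cdk1*, *Birc5*, *Ube2c*, *Cenpf* and *Nusap1* were detected in them. Of 17707 mouse cells with 750 to 5000 detected genes, 978 were members, of which 636 came from the control and 342 from the *Smo*-cKO library. The series held 41602 cells in all, and its 23482 ferret cells were not analysed here. The members were chosen by the measured UMIs of these 13 genes, so those genes are described and not compared.

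The cortex of littermate control embryos (*Smo* F/F in the study's methods, wild type in the labels) and of *hGFAP-Cre*;*Smo* F/F embryos (*Smo*-cKO) was collected at embryonic day 18 (E18), and the labels give the strain of both as CD1. A fluorescent dye that marks cells dividing at the ventricle (CellTrace Yellow, Flash-Tag in the labels) had been injected into the lateral ventricle at E17, and labeled cells were sorted before droplet-based single-cell sequencing. The human *GFAP* promoter drives Cre in cortical radial glia (RG), so *Smo*, which transduces the Sonic hedgehog (SHH) signal, is lost in RG and in what they generate. There was 1 library per genotype and the number of embryos was not given, so no difference could be set against a spread between replicates, and every interval below covers counting error only. All directions rest on assigning the barcode suffix with 10524 cells to the control and that with 7596 to *Smo*-cKO, from the cell numbers that the methods state.

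Cortical pyramidal neurons arise from RG largely through *Eomes*-expressing intermediate progenitors. In these cells proneural factors such as NEUROG2 switch on a cascade that includes *Neurod1* and then *Neurod2*, *Neurod6* and *Tbr1*, while progenitor genes such as *Sox2* and *Pax6* are shut off. *Eomes* RNA persists for a time in the youngest postmitotic neurons. *Neurog2*-negative *Eomes*+ cells may therefore be progenitors or newly formed neurons, and the RNA alone does not say which.

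The label check came out as follows. *Smo* (chr6:29735503-29761365, mm10, gene annotation GENCODE vM21) had 103 UMIs in 1396 control RG and 1 UMI in 1117 *Smo*-cKO RG. In late *Eomes*+ cells it had 14 UMIs in 13 control cells and 1 UMI in 1 *Smo*-cKO cell, 5.43 and 0.66 CPM (a gene's summed UMIs in a group relative to all UMIs of that group, on a parts-per-million scale). *Ptch1*, the SHH receptor and a target of the pathway, had 11 UMIs in control members and 0 of 342 *Smo*-cKO members had 1, which allows a share of cells with a UMI of up to 0.877% and sets no limit on cells that express it. *Gli1*, the other common target, had 2 and 0 UMIs, too few to compare. The pathway's targets were thus close to the detection limit in late *Eomes*+ cells of both libraries.

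The libraries differed in more than genotype. Members had a median of 3510 UMIs in the control (range, 2462 to 15093) and 4102.5 in *Smo*-cKO (range, 1477 to 15762). *Xist*, which is transcribed from the inactive X chromosome, had a UMI in 18.7% of control members and in 0 of 342 *Smo*-cKO members, and a Y-linked UMI was found in 47.5% and 55.6%. The libraries therefore held different mixtures of male and female cells, and ratios within cells that had a Y-linked UMI and no *Xist* UMI (283 control and 190 *Smo*-cKO members) are given where they differ. The libraries shared 28 barcodes, of which 3 belonged to members of each. Markers of other cell types were rare: 2 or more of 10 microglia markers were found in 2 control and 0 *Smo*-cKO members, of 10 inhibitory lineage markers in 3 and 3, of 9 endothelial and mural markers in 3 and 2, of 9 Cajal-Retzius markers in 2 and 0, of 7 red blood cell genes in 1 and 0, and of 10 glial and multipotent progenitor markers in 12 and 8. Their summed levels in control and *Smo*-cKO members were 79.8 and 11.9 CPM for microglia, 9.69 and 12.5 CPM for inhibitory, 13.2 and 9.24 CPM for endothelial and mural, 12.8 and 5.28 CPM for Cajal-Retzius 26.7 and 35.6 CPM for red blood cell genes and 47.3 and 62.7 CPM for glial and multipotent progenitor markers. Markers of another class or very high UMI counts were found in 16 control and 5 *Smo*-cKO members. With these left out, 353 of 7137 genes were at least 1.5-fold higher in *Smo*-cKO (4.95%) and 226 lower (3.17%). Among all members these were 358 and 275 of 7319 (4.89% and 3.76%). Of the microglia, inhibitory and endothelial lists, 1 microglia marker (*P2ry12*), 1 inhibitory marker (*Dlx6*) and 2 endothelial markers (*Pecam1* and *Flt1*) were at 0 UMI in both libraries, and the other markers of these 3 lists were detected in at least 1 library. Of the 206 microglia marker UMIs in control members, 1 cell held 116.

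Late *Eomes*+ cells made up 6.06% of control cells (95% exact binomial interval, 5.61 to 6.53) and 4.74% of *Smo*-cKO cells (4.26 to 5.26). Subtracting the control share left -1.31 points, with a Newcombe interval of -1.98 to -0.64. The rule asks for the absence of 5 genes and so depends on depth. After every cell had been thinned to 2500 UMIs, the shares were 5.53% and 5.05%, and the interval of their difference (-1.15 to 0.21 points) included 0. Among all cells with at least 2 *Eomes* UMIs, the late share was 18.6% in the control against 17.05% in *Smo*-cKO (difference, -1.51 points; -3.58 to 0.62). The rule was applied again to the thinned counts, so cells that had lost their early or division gene UMIs could become late. After thinning, the late share of cells with at least 2 *Eomes* UMIs was 27.0% in the control and 28.5% in *Smo*-cKO. By the rule on thinned counts, the late share was thus not distinguishable between the libraries. The thinned late cells are not the same members, so whether the share of those members differs at equal depth is left undecided. For comparison, dividing *Eomes*+ cells (3 or more division genes) made up 4.58% of control and 1.29% of *Smo*-cKO cells, and this difference had the same direction after thinning, at 1.43% and 0.281%. All these shares are of cells sorted for the dye.

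**Figure D1:**
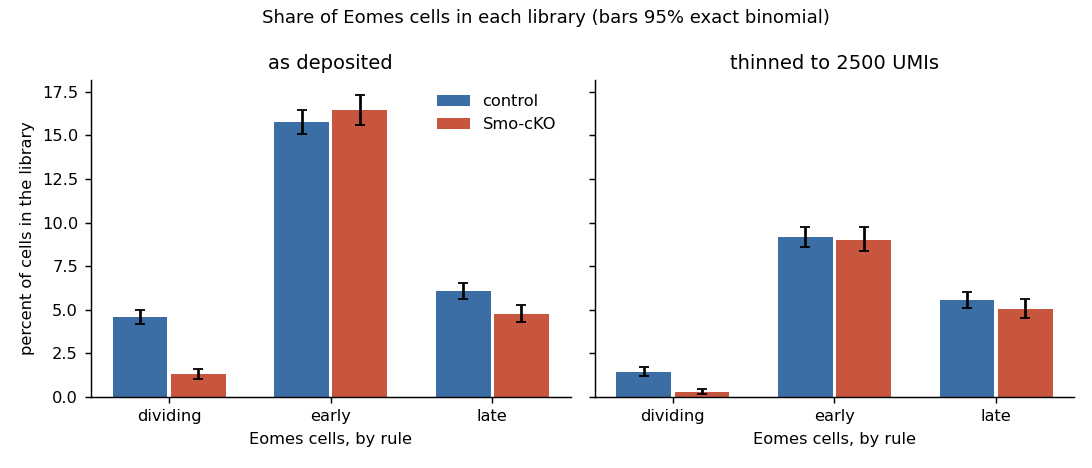
Share of all cells of a library, in percent, that were dividing, early or late *Eomes*+ cells, in the control (blue) and *Smo*-cKO (red) libraries, with 95% exact binomial bars, as deposited (left) and with every cell thinned to 2500 UMIs (right). The late shares of 6.06% and 4.74% moved to 5.53% and 5.05%, whereas the dividing shares stayed apart.

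The thresholds of the rule cut through a continuous range of *Eomes* counts, and the cells on either side are given as a description. Exactly 2 *Eomes* UMIs were found in 305 control members (48.0%) and 152 *Smo*-cKO members (44.4%), and the highest counts were 12 and 13. Cells outside with 1 *Eomes* UMI (566 and 345) had 358 and 326 CPM of *Neurod1*, against 401 and 446 CPM in members with 2. Their *Tubb3*, a neuronal tubulin, stood at 1362 and 1234 CPM, against 1169 and 1174 CPM. *Tubb3* was lower in members with more *Eomes*: those with 5 or more UMIs (88 and 56 cells) had 920 CPM (95% Poisson interval, 830 to 1018) in the control and 782 CPM (685 to 889) in *Smo*-cKO. Their *Neurod1* level was close to that of members with 2, at 409 and 419 CPM. Cells kept out by 1 UMI in all of the 5 early genes (498 and 290) had 908 and 970 CPM of *Tubb3*. Exactly 2 division genes were detected in 11 control and 0 *Smo*-cKO members, and exactly 3 in 5 and 1 cells outside.

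In *Mfap4*, *Kif26b* and *Lrrn3* these cells lay between early *Eomes*+ cells and newborn neurons, whereas *Elavl4* was highest in late cells of *Smo*-cKO. Early *Eomes*+ cells (at least 2 *Eomes* and at least 1 *Neurog2* UMI, not dividing) numbered 1655 in the control and 1186 in *Smo*-cKO, and newborn neurons (at least 2 *Neurod1* UMIs, no *Eomes* and no early gene, not dividing) numbered 411 and 368. *Mfap4*, an extracellular matrix protein, stood at 304, 233 and 98.4 CPM in early, late and newborn cells of the control, and at 285, 201 and 95.9 CPM in *Smo*-cKO. *Kif26b*, a kinesin family member, went from 69.2 to 43.8 and 19.3 CPM in the control and from 85.6 to 40.3 and 11.6 CPM in *Smo*-cKO. *Lrrn3*, a leucine-rich repeat membrane protein, went from 77.9 to 45.0 and 25.3 CPM and from 70.0 to 48.2 and 16.7 CPM. So these 3 markers were highest in early cells, and late cells lay between early cells and newborn neurons. *Elavl4*, a neuronal RNA-binding protein, had 458, 383 and 285 CPM in the control and 475, 512 and 328 CPM in *Smo*-cKO.

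In the other direction, *Tubb3* stood at 397, 1091 and 1509 CPM in early, late and newborn cells of the control and at 367, 1082 and 1589 CPM in *Smo*-cKO. *Neurod6*, a late factor of the neuronal cascade, had 494, 894 and 1030 CPM and 496, 1037 and 1157 CPM. *Sox2* had 169, 62.0 and 45.9 CPM in the control and 173, 49.5 and 28.3 CPM in *Smo*-cKO, and *Pax6* had 242, 144 and 73.1 CPM and 241, 149 and 86.9 CPM. A *Tubb3* UMI was found in 90.1% and 94.2% of members and in 23.3% and 17.1% of microglia, which should lack it and had median depths of 8669 and 11359 UMIs. A *Sox2* UMI was found in 14.5% and 15.8% of members, against 7.0% and 6.3% of microglia. Since most members held neuronal RNA, they are called late *Eomes*+ cells and not progenitors here.

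**Figure D2:**
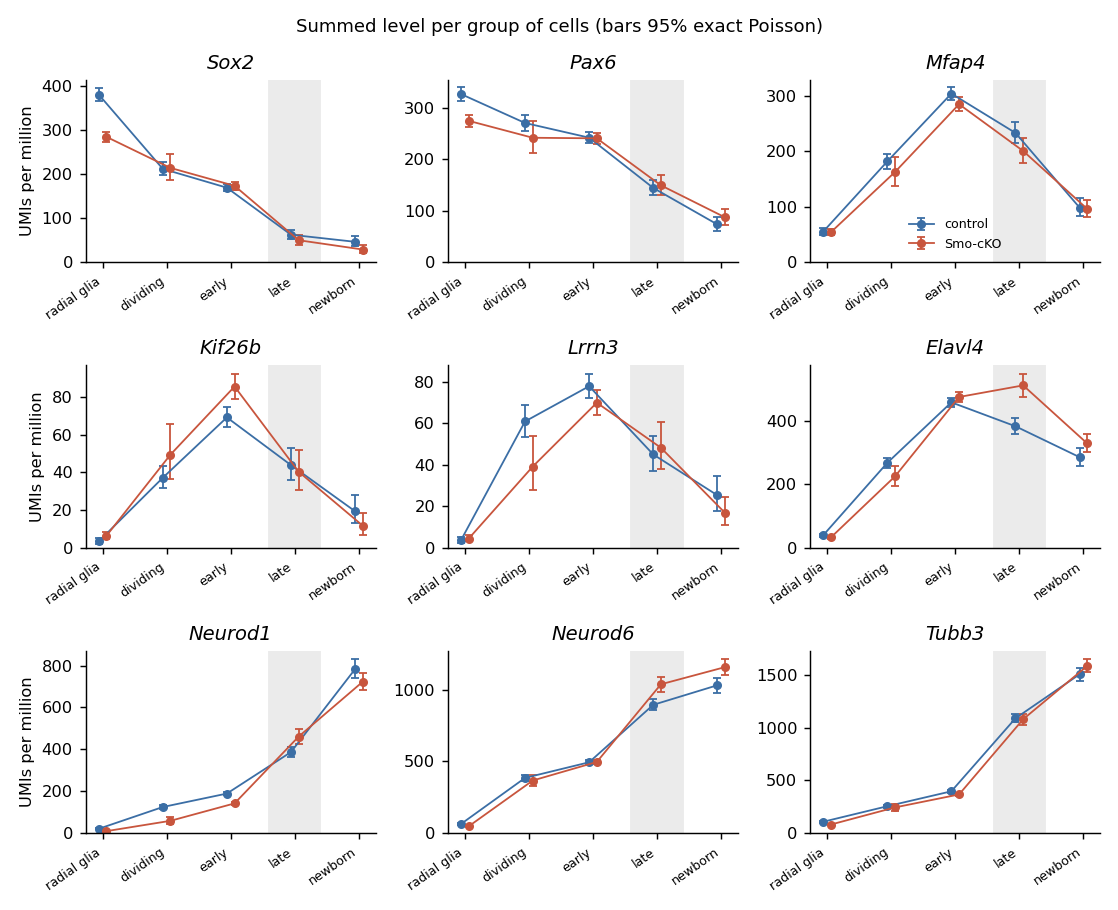
Summed level (CPM, with 95% exact Poisson bars) of 9 genes in radial glia, dividing, early and late *Eomes*+ cells and newborn neurons of the control (blue) and *Smo*-cKO (red) libraries, with late cells shaded. Newborn neurons were chosen by *Neurod1* and radial glia by genes that include *Sox2* and *Pax6*, so these levels follow in part from the choice. *Mfap4*, *Kif26b* and *Lrrn3* were highest in early cells, and between early and late control cells *Sox2* was at 169 and 62.0 CPM and *Tubb3* at 397 and 1091 CPM.

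Against early *Eomes*+ cells, 233 of 9703 genes with at least 50 UMIs were at least 2-fold higher in late cells of the control (2.40%) and 289 were at least 2-fold lower (2.98%). In *Smo*-cKO these were 358 (3.82%) and 579 (6.18%) of 9376. When cells with at least 5 of 9 RG genes were left out of both groups, 349 of 8602 genes were lower (4.06%). Both groups come from the same library in each case. The genes with the strongest excess in both libraries were *Fam84a*, *Pcp4*, *Rbfox1*, *Myt1l*, *Stac2*, *Tubb3*, *Tmem158*, *Nos1*, *Sema3c* and *Pcdh7*. *Pcp4*, a calmodulin-binding peptide, stood at 499 CPM in early and 1553 CPM in late control cells, 3.11-fold higher (95% counting interval, 2.98 to 3.25), and at 170 and 813 CPM in *Smo*-cKO, 4.78-fold higher (4.42 to 5.17). *Myt1l*, a zinc finger factor of neuronal identity, was 3.41-fold and 3.46-fold higher, *Rbfox1*, a neuronal splicing regulator, 3.67-fold and 4.06-fold, and *Sema3c*, a secreted semaphorin, 2.79-fold and 3.80-fold. The genes with the strongest deficit were *Dapk2*, *Slc1a2*, *Ptgds*, *Nbl1*, *Gfap*, *Mgarp*, *Myo10*, *Tifa*, *Ckb* and *Sox2*. *Slc1a2*, a glial glutamate transporter, had 66.8 CPM in early and 15.5 CPM in late control cells and 58.5 and 10.6 CPM in *Smo*-cKO. *Dapk2*, a death-associated kinase, had 15.8 and 0.388 CPM and 25.4 and 0.66 CPM. *Ckb*, the brain creatine kinase, was at a ratio of 0.398 in the control and 0.236 in *Smo*-cKO.

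The gene lists followed this order. Of 21 measured neuronal differentiation factors, 6 were at least 2-fold higher and 0 lower in late than in early control cells, and 8 and 1 in *Smo*-cKO, with median log2 ratios of 0.83 and 0.92 (all genes, 0.04 and 0.03). *Bhlhe22* (3.02-fold and 3.38-fold), *Tbr1*, an early marker of deep-layer neurons (2.44-fold and 2.38-fold), and *Scrt1* (2.19-fold and 3.11-fold) were among them. Over all genes 2.40% were higher and 2.98% lower in the control, and 3.82% and 6.18% in *Smo*-cKO. Of the migration genes, 7 of 22 were higher and 0 lower in the control, and 10 and 2 of 20 in *Smo*-cKO. Among the higher ones were the semaphorin receptors *Nrp1* (3.03-fold and 2.80-fold) and *Plxna4* (2.28-fold and 3.72-fold). The netrin receptor *Unc5d* (2.34-fold and 2.82-fold) and *Robo2* (2.39-fold and 2.87-fold) were others. Of the neuronal cytoskeleton and synapse genes, 4 of 17 and 6 of 16 were higher and 0 lower, such as the membrane fusion protein gene *Snap25* (2.39-fold and 2.88-fold). Notch genes were lower in 2 of 11 and 6 of 13 cases, with the ligand *Dll1* at ratios of 0.269 and 0.0619 and the receptor *Notch1* at 0.429 and 0.193. *Dll1* stood at only 5.04 CPM in control and 1.98 CPM in *Smo*-cKO late cells, so its ratios rest on few UMIs. RG genes were lower in 4 of 18 in the control and 12 of 18 in *Smo*-cKO, with medians of -0.34 and -1.33. Early cells with at least 5 of 9 RG genes were also more frequent in *Smo*-cKO (23.1%) than in the control (14.5%). Early cells were deeper in *Smo*-cKO, with medians of 5833 and 4619 UMIs. Among early cells chosen again after thinning to 2500 UMIs, the shares were 5.73% and 3.18% (difference, 2.55 points; 0.49 to 4.88).

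Against newborn neurons the differences were fewer. In the control 88 of 7264 genes were at least 2-fold higher in late *Eomes*+ cells (1.21%) and 60 lower (0.826%), and in *Smo*-cKO 81 (1.24%) and 64 (0.977%) of 6554. The strongest excess was in *Ptgds*, *Pbx3*, *Mfap4*, *B2m*, *Tmem163*, *Gamt*, *Egr1*, *Nrxn3*, *Stc1* and *Kif26b*. *Pbx3*, a homeobox factor, had 13.96 CPM in newborn neurons and 39.9 CPM in late cells of the control and 10.9 and 56.8 CPM in *Smo*-cKO. *Egr1*, an immediate early factor, was 2.06-fold and 2.16-fold higher, and *Btg2*, an antiproliferative gene of neurogenic divisions, was 2.11-fold and 3.12-fold higher. The strongest deficit was in *Pdzrn3*, *Cntn2*, *Nrp1*, *Hs6st2*, *Clmp*, *Stmn2*, *Jph4*, *Bhlhe22*, *Ly6h* and *Myt1l*. *Cntn2* (TAG-1), an adhesion molecule of growing axons, had 55.2 CPM in newborn neurons and 15.9 CPM in late cells of the control and 76.6 and 20.5 CPM in *Smo*-cKO. *Stmn2*, a microtubule regulator of growth cones, was at ratios of 0.40 and 0.355. *Nrp1*, *Bhlhe22* and *Myt1l*, already higher in late than in early cells, were higher still in newborn neurons. Of the neuronal cytoskeleton genes 0 of 16 were higher and 1 and 3 lower, with medians of -0.48 and -0.42.

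Not all members were alike in RG genes. Of 9 RG genes (*Sox2*, *Pax6*, *Hes1*, *Hes5*, *Slc1a3*, *Aldoc*, *Mfge8*, *Ddah1* and *Ednrb*), 2 or fewer were detected in 89.2% of control and 92.1% of *Smo*-cKO members. At least 5 were detected in 43 control members (6.76%; 4.936 to 8.999) and 10 *Smo*-cKO members (2.92%; 1.41 to 5.31), a difference of -3.84 points (-6.43 to -0.92). Among members chosen again after thinning to 2500 UMIs, the shares were 3.33% and 1.46%, and the interval of the difference (-3.86 to 0.39) included 0. These carriers had median depths of 6648 and 8414 UMIs, against 3455 and 4083 in the other members. Their *Fabp7*, the brain lipid-binding protein of RG, stood at 13248 and 9633 CPM against 621 and 698 CPM in the other members, and their *Vim* at 1608 and 1690 CPM against 73.2 and 60.9 CPM. They had less *Neurod1* (150 and 138 against 418 and 480 CPM) and *Tubb3* (398 and 310 against 1182 and 1129 CPM). Doublets were not called here, and whether carriers are pairs of cells or single cells with both programs was not tested.

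Between the genotypes, 358 of 7319 genes with at least 50 UMIs in all members were at least 1.5-fold higher in *Smo*-cKO (4.89%) and 275 at least 1.5-fold lower (3.76%), counted by the ratio alone. Among the 3170 genes with at least 200 UMIs 1.48% were higher and 1.39% lower, so the shares over all genes depend on abundance. With median-of-ratios scaling these were 260 and 342, so the balance of directions depends on the scaling. Of the measured RG genes 12 of 17 were lower and 1 was higher, with a median log2 ratio of -0.78 (all genes, 0.04). The median was -0.0139 after thinning to 2500 UMIs and 0.0222 when 1 *Eomes* UMI was enough, so it depended on the setting. Both settings also changed which cells were members, so the thinned value does not separate depth from membership. Carriers are defined by RG genes, so leaving them out also lowers the level of RG genes by construction, and the values without them are a description. Without carriers, 0 of 12 were lower and 3 higher, and the median was 0.19, on a background of 2.82% lower and 5.16% higher. The 9 genes of the list that had not been used to find carriers had 7 of 9 lower and a median of -0.78 among all members and 0 of 7 lower and a median of -0.03 without carriers. *Dbi*, a lipid-binding protein of RG, was still lower without carriers, at a ratio of 0.779. *Fabp7* went from 2085 CPM in control to 1211 CPM in *Smo*-cKO members, a ratio of 0.581 (0.551 to 0.613), which became 1.12 without carriers. *Vim*, an intermediate filament, had a ratio of 0.615, which became 0.832, and *Sox9* had 0.541, which became 0.981. *Hopx* was the exception, at 53.5 and 83.2 CPM, a ratio of 1.55 (1.21 to 1.99) in all members and 1.65 without carriers, though 1.13 in cells with a Y-linked UMI. In newborn neurons, of which 4.87% and 2.17% carried at least 5 RG genes, 13 of 17 RG genes were likewise lower (all genes, 3.56%). In early cells 0 of 18 were lower (all genes, 3.14%) and 7 higher (all genes, 5.80%). In newborn neurons 0 of 17 were higher (all genes, 3.71%).

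**Figure D3:**
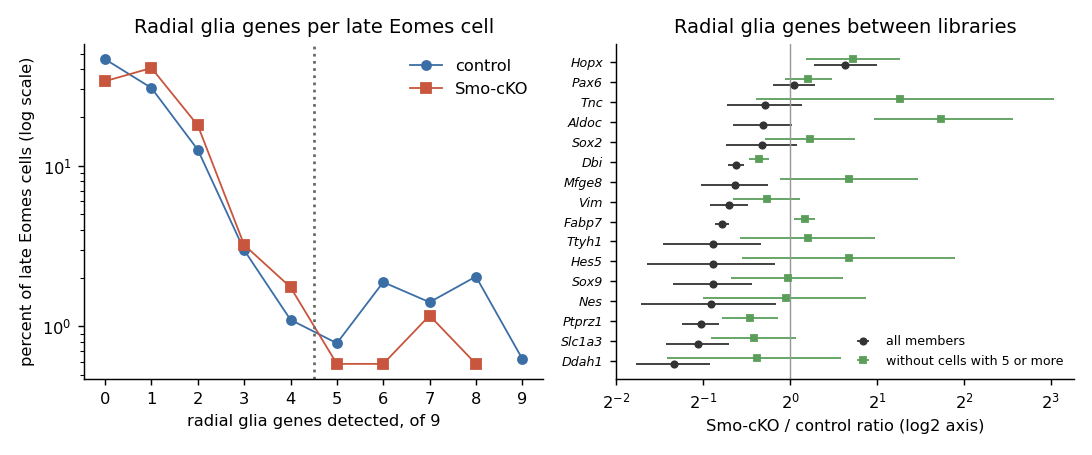
Left, percent of late *Eomes*+ cells (log scale) by the number of 9 radial glia genes detected, in the control (blue circles) and *Smo*-cKO (red squares), with a dotted line below 5 genes, where 43 and 10 cells lie to its right (no *Smo*-cKO cell had all 9). Right, *Smo*-cKO over control ratio of radial glia genes (log2 axis, 95% counting intervals) in all members (black) and without those cells (green). *Fabp7* moved from a ratio of 0.581 to 1.12.

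Of 11 measured G1 cyclins and cell cycle inhibitors, 1 was at least 1.5-fold higher in *Smo*-cKO (all genes, 4.89%) and 3 were lower (all genes, 3.76%). Without carriers 1 of 10 was higher (all genes, 5.16%) and 2 were lower (all genes, 2.82%). *Cdk6* (chr5:3341485-3531008), the G1 kinase that pairs with D cyclins, had 472 UMIs in 295 of 636 control members (183 CPM) and 69 UMIs in 55 of 342 *Smo*-cKO members (45.5 CPM), a ratio of 0.249 (0.191 to 0.321). The ratio was 0.242 without carriers and 0.271 in cells with a Y-linked UMI. *Cdk6* was also lower in *Smo*-cKO in early *Eomes*+ cells (208 and 46.5 CPM), newborn neurons (103 and 23.2 CPM) and RG (87.9 and 33.1 CPM). *Ccnd2* (cyclin D2) had 430 and 260 CPM, a ratio of 0.605 (0.538 to 0.679), and *Ccnd1* (cyclin D1) had 17.4 and 5.28 CPM, a ratio of 0.303 (0.123 to 0.649). The *Ccnd1* ratio rests on few UMIs in *Smo*-cKO members. *Cdkn1c* (p57), a cyclin-dependent kinase inhibitor, went the other way, from 76.7 to 174 CPM, a ratio of 2.26 (1.87 to 2.73). Its ratio was 3.78 in early cells and 1.89 in newborn neurons. DNA replication genes were lower in 4 of 11 (*Mcm4*, *Mcm6*, *Hells* and *Dut*), against 3.76% of all genes, and in 0 of 9 once carriers were left out (all genes, 2.82%).

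Neuronal genes were similar or slightly higher in *Smo*-cKO members. *Tubb3* stood at 1091 and 1082 CPM, a ratio of 0.992 (0.933 to 1.05). *Neurod1* had a ratio of 1.19 (1.08 to 1.31), *Neurod2* 1.25 (1.12 to 1.41), *Neurod6* 1.16 (1.09 to 1.24) and *Tbr1* 1.27 (1.11 to 1.46), each under 1.5-fold. Of 21 neuronal differentiation factors 1 was at least 1.5-fold higher and 1 lower. The first was *Id2*, an inhibitor of basic helix-loop-helix factors, with 426 and 692 CPM and a ratio of 1.62 (1.49 to 1.77). The second was *Nhlh1*, a factor of newly born neurons, with 41.1 and 23.1 CPM and a ratio of 0.562 (0.372 to 0.831). Of 16 neuronal cytoskeleton and synapse genes 0 passed in either direction (median log2, 0.22). *Pcp4* was lower, at 1553 and 813 CPM, a ratio of 0.523.

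Of 20 migration genes 2 were higher in *Smo*-cKO and 1 lower, beside 4.89% and 3.76% of all genes. *Plxna4*, a semaphorin receptor, had 107 and 214 CPM, a ratio of 2.01 (1.70 to 2.36). Its ratio was 1.23 in early cells, 1.27 in newborn neurons and 0.64 in RG. *Islr2*, a membrane protein of axon guidance, had 66.3 and 158 CPM, a ratio of 2.38 (1.95 to 2.91), beside 1.51 in early cells and 1.44 in newborn neurons. *Robo1* had a ratio of 1.70 (1.27 to 2.28), whereas *Dab1*, an adaptor of Reelin signaling, had 0.547 (0.303 to 0.945). *Islr2* and the next 4 genes belong to no list and were named for the size of their ratio. *Alcam*, an adhesion molecule, had 31.0 and 93.7 CPM (ratio, 3.02; 2.28 to 4.03), *Limch1* 82.6 and 184 CPM (2.23; 1.86 to 2.68), *Chn2*, a Rac GTPase-activating protein, 13.6 and 50.8 CPM (3.75; 2.48 to 5.76) and *Chd5*, a neuronal chromatin remodeler, 5.43 and 28.4 CPM (5.23; 2.81 to 10.4). These 4 genes were also at least 1.4-fold higher in early cells, newborn neurons and RG. Of the layer factors 2 of 14 were higher, *Bcl11b* (34.5 and 58.1 CPM) and *Foxp1* (26.0 and 39.6 CPM), and *Mef2c* was lower (29.1 and 15.8 CPM). In cells with a Y-linked UMI the ratios of *Bcl11b* and *Foxp1* were 1.27 and 1.40. Of 11 regional factors 2 were higher, *Dmrta2* with a ratio of 1.56 (1.27 to 1.93) and *Nr2f2* (COUP-TFII), of whose 47 *Smo*-cKO UMIs 1 cell held 26.

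Counts of signaling lists are set beside 4.89% higher and 3.76% lower over all genes. *Wnt5a*, a WNT ligand that is not in the WNT list, had 16.3 and 52.1 CPM, a ratio of 3.20 (2.18 to 4.78). *Wnt7b*, another WNT ligand, had 36.4 and 66.0 CPM (1.81; 1.35 to 2.43), and in the WNT list 1 of 7 genes was higher and 1 lower (*Tcf7l2*). The receptors *Notch1* (36.8 and 16.5 CPM; 0.448) and *Notch2* (81.0 and 39.6 CPM; 0.489) were lower, and without carriers their ratios were 0.532 and 0.759. Of 8 measured Notch genes 0 were higher. In the BMP list *Bmpr1a* and *Id3* were higher and *Smad7* and *Id4* lower, of 11 measured. *Id3*, a BMP response gene, had 30 and 48 UMIs, a ratio of 2.72 (1.69 to 4.45) that became 1.06 without carriers. Of 4 measured SHH pathway genes *Gas1*, a co-receptor, was lower (0.394), and its ratio without carriers was 1.18. *H2-K1*, a class I histocompatibility heavy chain, had 33.3 and 95.7 CPM (2.87; 2.18 to 3.79), and its light chain *B2m* had 50.4 and 112 CPM (2.21; 1.75 to 2.80). Both were also higher in early cells (3.80 and 3.98), newborn neurons (2.35 and 3.64) and RG (1.93 and 2.66).

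**Figure D4:**
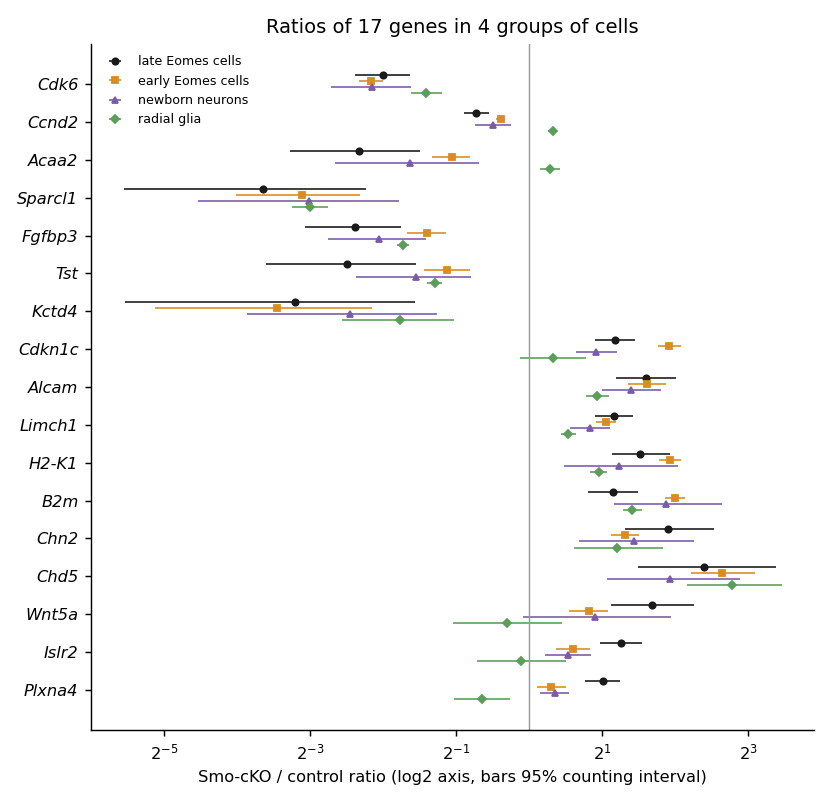
*Smo*-cKO over control ratio (log2 axis) of 17 genes in late *Eomes*+ cells (black), early *Eomes*+ cells (orange), newborn neurons (purple) and radial glia (green), with 95% counting intervals. *Cdk6* lay at 0.249 in late cells and below 0.4 in the other groups, and *Plxna4* lay at 2.01 in late cells but at 0.64 in radial glia.

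Several of the lowest ratios came from very few cells. *Fcer1g*, *Saa3*, *Hmox1*, *Lgals3* and *Ctss*, genes of microglia and macrophages, had 48 to 115 UMIs in control members and 2 to 4 in *Smo*-cKO members, and at most 2 control cells held 94% or more of those UMIs for each gene. The direction turned for *Fcer1g*, *Lgals3*, *Saa3* and *Ctss* when 1 *Eomes* UMI was enough (log2 ratios, 0.808, 0.419, 0.374 and 0.386), and for *Fcer1g* and *Hmox1* with at least 3 *Eomes* UMIs (1.68 and 1.68). *Dqx1* had 99 and 10 UMIs, with 92.9% of the control UMIs in 2 cells. In contrast, *Sparcl1*, a secreted matrix-associated protein, had 85 UMIs in 51 control cells and 4 UMIs in 4 *Smo*-cKO cells (ratio, 0.080; 0.021 to 0.213). *Acaa2*, an enzyme of mitochondrial fatty acid oxidation, had 111 UMIs in 91 cells and 13 in 13 (0.199; 0.103 to 0.355), and *Kctd4* had 47 UMIs in 39 cells and 3 in 2 (0.109; 0.022 to 0.338). *Fgfbp3*, an FGF-binding protein, had 204 UMIs in 77 cells and 23 in 23, a ratio of 0.192 that became 0.592 without carriers. *Tst*, a mitochondrial sulfurtransferase, had 96 UMIs in 43 cells and 10 in 10, and its ratio of 0.177 became 0.383. *Sparcl1* was also low in early cells, newborn neurons and RG of *Smo*-cKO (0.12, 0.12 and 0.13).

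*Prm1* (chr16:10796326-10805839), which encodes a protamine of sperm chromatin, was the gene to which UMIs of the *Smo*-cKO library alone were assigned. The source of these UMIs was not tested. It had 0 UMI in 636 control members, which allows a share of cells with a UMI of up to 0.472%, and 63 UMIs (41.6 CPM) in 29 of 342 *Smo*-cKO members (8.48%; 5.752 to 11.95), at least 35.8-fold higher against a floor of 3 counts over the group. In RG of *Smo*-cKO 90.0% of cells had a UMI (734 CPM), in dividing *Eomes*+ cells 59.1% (214 CPM), in early cells 21.8% (86.4 CPM) and in newborn neurons 8.42% (47.0 CPM). Microglia, which do not descend from RG, had a UMI in 9.91% of cells (17.1 CPM) at a median depth of 11359 UMIs. The share in members was below this background at a lower depth, whereas their level was above it. The 10 carriers of RG genes had 448 CPM and the other 332 members 16.8 CPM, so the level in members without carriers was close to that of microglia.

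**Figure D5:**
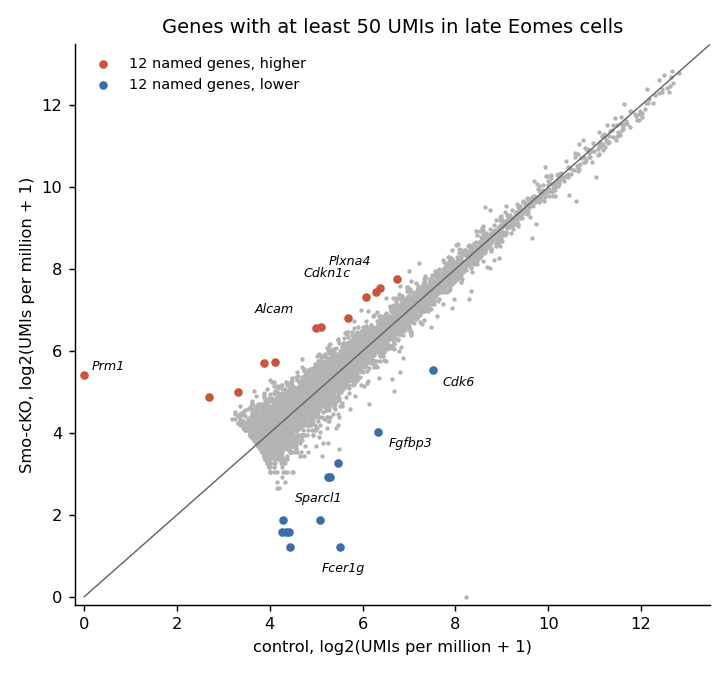
Level of each of 7319 genes in late *Eomes*+ cells of the control (x axis) and *Smo*-cKO (y axis), as log2 of CPM with 1 added, with the 12 genes of highest lower bound (red) and of lowest upper bound (blue) of the ratio. *Prm1* was at 0 in the control, the unlabeled gene at 0 on the y axis is *Xist*, and 358 genes were at least 1.5-fold higher and 275 lower.

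The remaining lists are given beside the shares over all genes (4.89% higher and 3.76% lower). Among genes with at least 200 UMIs the shares were 1.48% and 1.39%, so few calls in a list of abundant genes do not set it apart. Cytosolic ribosomal protein genes had a median log2 ratio of -0.14, with 0 of 80 higher and 1 lower, and mitochondrially encoded genes 0.10, with 0 of 13 in either direction. Of 13 glycolysis genes 1 was higher (*Pfkl*), and of 8 genes of p53 and its targets 1 was higher (*Bbc3*, a proapoptotic gene, 9.30 and 19.1 CPM). Of 16 cholesterol synthesis genes 1 was higher (*Sqle*) and 4 lower (*Hmgcs1*, *Idi1*, *Cyp51* and *Msmo1*), and without carriers 1 of 14 was lower. Of 8 immediate early genes 2 were lower, *Egr1* (177 and 95.7 CPM; 0.542) and *Ier2* (109 and 63.4 CPM; 0.580). Of the 5 measured intermediate progenitor genes that the study names, 0 passed in either direction, and *Elavl4*, with 383 and 512 CPM, had the highest ratio among them (1.34; 1.22 to 1.47).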

How the data were processed

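Sorted mouse cortical cells were profiled in 1 10x Chromium library per genotype. Reads were run through Cell Ranger by the authors (version not given in the sources used here; build mm10 per the submitters' processing notes, which also list Seurat 3 and StringTie) and deposited raw UMI counts of 17170 genes per cell, without normalization. No deposited columns name a sample. Cells with 750 to 5000 detected genes were kept. The methods also limit mitochondrial transcripts to under 10%, and 0 kept cells exceeded it. The kept cells held 51657121 (control) and 42057782 (*Smo*-cKO) UMIs, and the lowest depth of a kept cell was 2454 and 1068 UMIs.

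Here, UMIs were summed per group of cells and library and given as CPM with exact Poisson intervals, ratios with exact conditional intervals, shares with Clopper-Pearson intervals and their differences with Newcombe intervals, all at 95%. Cells are not replicates, so no test was run and no p-value is given. Genes needed 50 UMIs in both groups together, and folds of 1.5 between libraries and 2 between cell groups were counted. Thinning drew 2500 UMIs per cell without replacement, and shallower cells (173 control, 439 *Smo*-cKO) were left out. The rules of all cell groups were then applied to the thinned counts, so membership changed as well as depth. Named genes between libraries were the 12 with the highest lower and the 12 with the lowest upper bound of the ratio, and between cell groups the 10 in each direction by the bound nearer 1 in the library where it was nearer to 1. Sex-linked, red blood cell, mitochondrial, unnamed and rule genes were excluded. Other named genes belong to the 25 lists, to the rule or to the checks of the labels. RG were cells with at least 5 of the 9 RG genes, no *Eomes* UMI and under 3 division genes, and microglia had at least 4 of 6 microglia genes. Alternatives changed the *Eomes*, early gene, division gene and UMI minimums, the scaling and the depth, or left out cells with markers of another class or over 3 times the median UMIs of their library. No doublet caller was run. The ferret table was not used here. Members and lists were chosen with earlier results of these data known. Positions are from GENCODE vM21. The ratio code was tested on simulated data. Python 3.11.15, numpy 2.4.6, scipy 1.17.1 and pandas 2.3.3 were used.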

Additional observations from a re-analysis of the deposited data

Results flagged for a closer look

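The *Smo*-cKO over control ratio of 14 genes went 1 way in late *Eomes*+ cells and the other way in early *Eomes*+ cells or newborn neurons, with counting intervals that exclude 1 in both groups and ratios at least 1.5-fold apart. With 1 library per genotype the difference itself was not tested. The count of 14 is not set beside a share over all genes, so it does not say how common such genes are. Genes expressed in radial glia were lower in late and higher in early *Smo*-cKO cells: *Fabp7* (0.581 and 1.56), *Vim* (0.615 and 1.51), *Dbi* (0.65 and 1.07), *Ddah1* (0.397 and 1.51), *Mfge8* (0.646 and 1.86), *Id4* (0.568 and 1.22), *Gas1* (0.394 and 1.56) and *Ckb* (0.656 and 1.11). Without late cells that carried at least 5 of 9 radial glia genes, the late ratios became 1.12, 0.832, 0.779, 0.771, 1.6, 2, 1.18 and 0.703. The early ratios kept such cells, which were 14.5% of control and 23.1% of *Smo*-cKO early cells. The late ratios without carriers are therefore not matched to the early ratios. Genes held by a few control members were *Fcer1g* (0.0296 and 4.66), *Lgals3* (0.102 and 6.12), *Ctss* (0.142 and 7.31) and *Dqx1* (0.172 and 1.73). With at least 1 *Eomes* UMI the late log2 ratios of *Fcer1g*, *Lgals3* and *Ctss* were 0.808, 0.419 and 0.386, the other direction. *Neurod1* was higher in late and lower in early *Smo*-cKO cells (1.19 and 0.752). *Dab1* was lower in late cells (0.547) and higher in early cells (1.24) and newborn neurons (1.74).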

How the results depend on the processing

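No paired analysis was possible because there was 1 library per genotype, which also leaves no replicate to leave out. The difference in the share of late cells was -0.517 points with at least 3 *Eomes* UMIs, -2.21 points when only *Neurog2* had to be at 0 and -0.479 points after thinning to 2500 UMIs, and the difference in the late share of *Eomes*+ cells was 1.48 points after thinning, with an interval that included 0 before and after. With at least 20 UMIs per gene 698 genes were higher in *Smo*-cKO and 662 were lower, with at least 200 UMIs 47 and 44, and after thinning 168 were lower. The median log2 ratio of radial glia genes was 0.0222 with at least 1 *Eomes* UMI and 0.188 without carriers of radial glia genes, against -0.78 in the report. It was -0.385 when only *Neurog2* had to be at 0, -0.417 with 0 division genes, -0.592 without cells with markers of another class, -0.0139 after thinning, -0.631 with at least 200 UMIs and -0.958 in cells with a Y-linked and no *Xist* UMI. The median of glycolysis genes was 0.29, 0.205, 0.213 and -0.0389 with at least 1 *Eomes* UMI, after thinning, without carriers and in Y-linked cells. The median of regional factors was 0.0895 after thinning and that of ribosomal protein genes -0.201 with median-of-ratios scaling. The log2 ratio of *Fcer1g* was 0.808 with at least 1 *Eomes* UMI, 1.68 with at least 3 and 0.141 without cells with markers of another class. That of *Lgals3* was 0.419 with at least 1 and 0.141 without those cells, that of *Saa3* 0.374 and of *Ctss* 0.386 with at least 1, and that of *Hmox1* 1.68 with at least 3. Against early control cells 370 of 11148 genes were higher (3.32%) and 528 lower (4.74%) with at least 20 UMIs. With at least 200 these were 104 and 86 of 6177 (1.68% and 1.39%), and after thinning 154 of 7003 were lower (2.20%). In *Smo*-cKO 998 of 11004 were lower with at least 20 (9.07%). With at least 200, 155 of 5608 were higher (2.76%) and 188 lower (3.35%). After thinning 202 of 5706 were higher (3.54%) and 150 lower (2.63%), and without carriers 349 of 8602 were lower (4.06%). Against newborn neurons 273 of 9420 genes were higher (2.90%) and 165 lower (1.75%) in the control with at least 20 UMIs. With at least 200 these were 8 and 11 of 3124 (0.256% and 0.352%). In *Smo*-cKO 241 of 8819 were higher (2.73%) and 172 lower (1.95%) with at least 20 UMIs. With at least 200 these were 8 and 12 of 2516 (0.318% and 0.477%). After thinning 41 of 4444 were lower (0.923%), and with newborn neurons of at least 1 *Neurod1* UMI 128 of 7566 (1.69%). The settings without carriers and with Y-linked cells were chosen after seeing the data. The cause of these shifts was not tested. Higher UMI minimums and thinning left fewer genes to count, and with higher UMI minimums the share of genes past the fold also fell. Of 227 list medians under alternatives 213 were judged not to have moved, by the counting interval of the list's median gene. That interval is not the spread of a list median, so the count does not show how stable the lists were. Of 221 ratios of named genes 186 moved by less than their counting spread.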

Other observations

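Outside the comparisons above, metabolic and housekeeping lists were compared between late and early *Eomes*+ cells of the same library. Of the glycolysis genes 0 of 16 were at least 2-fold higher and 2 lower in late control cells, *Hk2* (0.36) and *Ldha* (0.47), and 0 and 3 of 15 in *Smo*-cKO, with median log2 ratios of -0.40 and -0.66. Over all genes 2.98% were lower in the control and 6.18% in *Smo*-cKO, and the counts below read against the same shares. Among genes with at least 200 UMIs 1.39% and 3.35% were lower. Cytosolic ribosomal protein genes were lower by a smaller amount in both libraries, with medians of -0.30 and -0.31 and 0 of 80 past 2-fold, whereas mitochondrially encoded genes had medians of 0.03 and 0.25. Genes of G1 cyclins and inhibitors were lower in 4 of 16 and 5 of 15, and DNA replication genes in 3 of 17 and 3 of 16. Members with a *Neurod1* UMI (434 and 238) had more *Tubb3* than members without one (202 and 104) in the control, at 1205 and 831 CPM, whereas in *Smo*-cKO the levels were 1104 and 1027 CPM. These differences were not tested.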
